A study of Rattus norvegicus with 6 samples.

Results

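The genes described here are 36 rat genes that carry out or restrain apoptosis, the ordered self-destruction of a cell, in left atria after rapid atrial pacing. They were chosen by name, as members of the BCL2 family, the caspases, the mitochondrial death factors, the death receptor pathway, the inhibitors of apoptosis and the nuclear targets. The rule named no measured change, but earlier results of these data were known when they were chosen. Of the 11237 genes with a log2 signal above 5 on at least 1 array, they made up 36, and all 36 were measured. Male adult Sprague-Dawley rats carried an implanted right atrial electrode and drank water with the beta blocker atenolol. They were paced for 48 h either at a cycle length of 70 ms (RAP, 3 rats) or at a cycle length of 140 ms (control pacing, 3 rats), and with both protocols the ventricles followed at the same rate, so that the atrial rate was what differed. Each RAP rat was paired with a control rat that had the same surgery and recovery and was paced alongside it in the next cage, and all rats received heparin before the heart was removed. RNA of the left atrium of each rat was hybridized to 1 whole-transcript array, which gave 6 arrays in 3 pairs. Arrays with the same replicate number were taken here as a pair, which the labels do not state. The control rats were paced and treated too, so the comparison is between pacing rates and has no unpaced group, and RNA of sufficient quality had decided which pairs went on to the arrays.

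Apoptosis can start at the cell surface or at the mitochondrion. At the surface, ligands such as Fas ligand and TNF bind death receptors, whose adaptors gather and activate caspase-8. At the mitochondrion, the effectors BAX and BAK open the outer membrane unless BCL2 and its protective relatives hold them back, and the cytochrome c that leaks out builds the apoptosome with APAF1 and caspase-9. Other mitochondrial proteins released on this route act without caspases, among them AIF, which moves to the nucleus and takes part in DNA breakdown. Cardiomyocytes divide little in the adult, and their loss by apoptosis is a known part of heart failure and ischaemic injury. The arrays measured transcripts only, whereas apoptosis is run largely by cleavage, release and binding of proteins that are already there.

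With RAP, 2 of the 36 genes rose and 3 fell. The rises were Aifm1, which encodes AIF, and Parp1, which encodes the DNA damage sensor PARP-1. The falls were Tnfrsf1a, the main receptor for TNF, Ripk1, the kinase that is recruited to it, and Fas, the receptor for Fas ligand. Rose and fell are used for genes that met the criteria of the study, which were a change of more than 1.3-fold and an unadjusted p under 0.05, here from limma with the pair as a block. At these thresholds 2.94% of all genes were higher and 3.45% lower with RAP, so that some calls among any 36 genes would be met at this rate. After Benjamini-Hochberg adjustment over the 19907 probe sets in the fit, 0 of the 36 had a limma p under 0.05, against 5 at an unadjusted p under 0.05, and the smallest adjusted p of any of the 11237 genes was 0.756. For genes whose groups do not overlap, an exact permutation test of 3 rats against 3 gives its smallest two-sided p, 0.1. An exact sign flip of 3 pairs, which keeps the pairing, cannot give a two-sided p under 0.25. By the methods' paired test without moderation, Aifm1 and Parp1 passed and the 3 falls did not. The arrays came from whole atria, in which fewer cells of a type and less RNA per cell cannot be told apart.

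**Figure D1:**
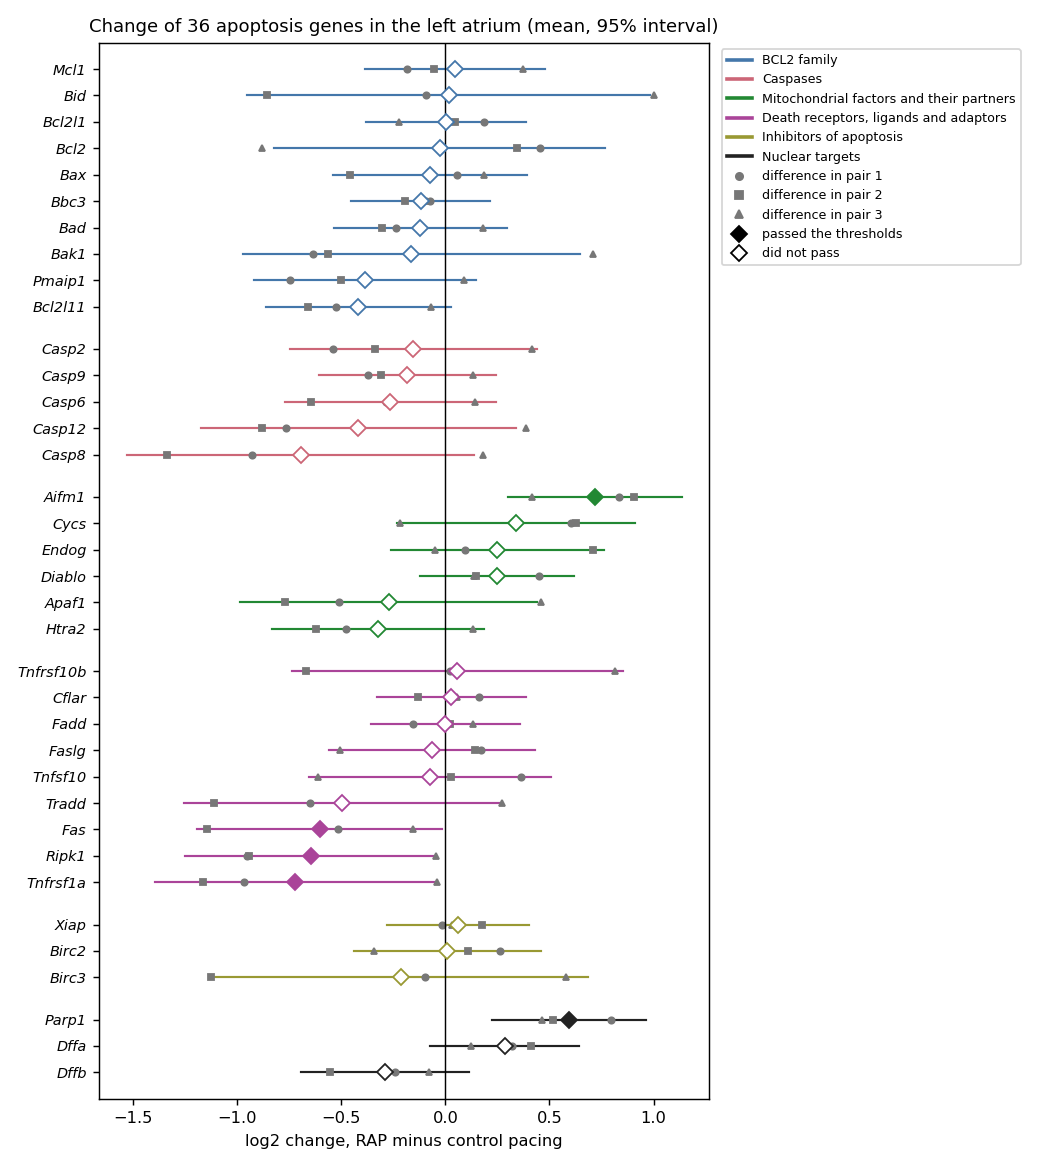
Log2 change (RAP minus control pacing, horizontal axis) of each of the 36 genes, grouped by role. Diamonds give the mean of 3 pairs with its 95% interval, filled where the gene passed the thresholds, and gray symbols give the single pairs. The filled diamonds are Aifm1 (0.72) and Parp1 (0.59) on the right and Fas (-0.60), Ripk1 (-0.65) and Tnfrsf1a (-0.73) on the left.

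Aifm1 had log2 signals of 9.16, 9.25 and 9.38 on RAP arrays 1, 2 and 3, against 8.33, 8.35 and 8.97 on control arrays 1, 2 and 3. All 3 RAP arrays were above all 3 control arrays, and control array 3 came nearest to them. The group means were 9.27 ± 0.11 with RAP and 8.55 ± 0.36 with control pacing (SD, n = 3 each). The change within pairs averaged 0.72 on the log2 scale (SE 0.16, 95% interval 0.30 to 1.13, adjusted p = 0.756 by limma), a 1.64-fold higher signal with RAP. Parp1, whose product binds broken DNA and attaches chains of ADP-ribose to proteins, had log2 signals of 9.50, 9.62 and 9.97 with RAP, against 8.71, 9.10 and 9.50 with control pacing. The groups touched without crossing, as RAP array 1 and control array 3 were nearly equal, and within each pair the RAP rat was higher by 0.79, 0.52 and 0.46. The average change was 0.59 (SE 0.14, 95% interval 0.22 to 0.96, adjusted p = 0.756 by limma). As background, excessive activity of PARP-1 is the classic trigger for the release of AIF in a caspase-independent form of cell death known as parthanatos. Without replicate 1, the change of Aifm1 was 0.66 and that of Parp1 0.49, and neither passed with 2 pairs left. When single arrays were left out of a fit with no replicate block, Aifm1 passed each time, and Parp1 did not pass without RAP array 2 (0.63) or 3 (0.46) or control array 1 (0.39) or 2 (0.59).

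Tnfrsf1a, which encodes TNF receptor 1, had log2 signals of 9.55, 9.10 and 9.57 on RAP arrays 1, 2 and 3, against 10.51, 10.27 and 9.62 on control arrays 1, 2 and 3. The groups did not overlap, but control array 3 stood only just above RAP arrays 1 and 3. The differences within pairs were -0.97, -1.17 and -0.04, with an average of -0.73 (SE 0.26, 95% interval -1.40 to -0.05, adjusted p = 0.756 by limma). Ripk1, the kinase at which TNF signaling turns either to survival or to death, had log2 signals of 7.19, 7.03 and 7.55 with RAP, against 8.15, 7.98 and 7.60 with control pacing. It followed the same course, with differences of -0.95 and -0.95 in pairs 1 and 2 and of -0.05 in pair 3, and an average of -0.65 (SE 0.23, 95% interval -1.25 to -0.04). Fas had log2 signals of 6.27, 6.13 and 6.47 with RAP, against 6.79, 7.28 and 6.62 with control pacing. Here too all RAP arrays were below all control arrays, with the smallest difference in pair 3 (-0.16) and the largest in pair 2 (-1.14), and the average was -0.60 (SE 0.23, 95% interval -1.19 to -0.02). Each of the 3 falls rested on pairs 1 and 2. Without replicate 1 the changes of Tnfrsf1a, Ripk1 and Fas were -0.60, -0.50 and -0.65, without replicate 2 they were -0.51, -0.50 and -0.34, and none of these passed. When single arrays were left out of a fit with no replicate block, Ripk1 passed each time, Fas did not pass without RAP array 2 (-0.53), and Tnfrsf1a did not pass without RAP array 2 (-0.57) or control array 1 (-0.53) or 2 (-0.66).

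**Figure D2:**
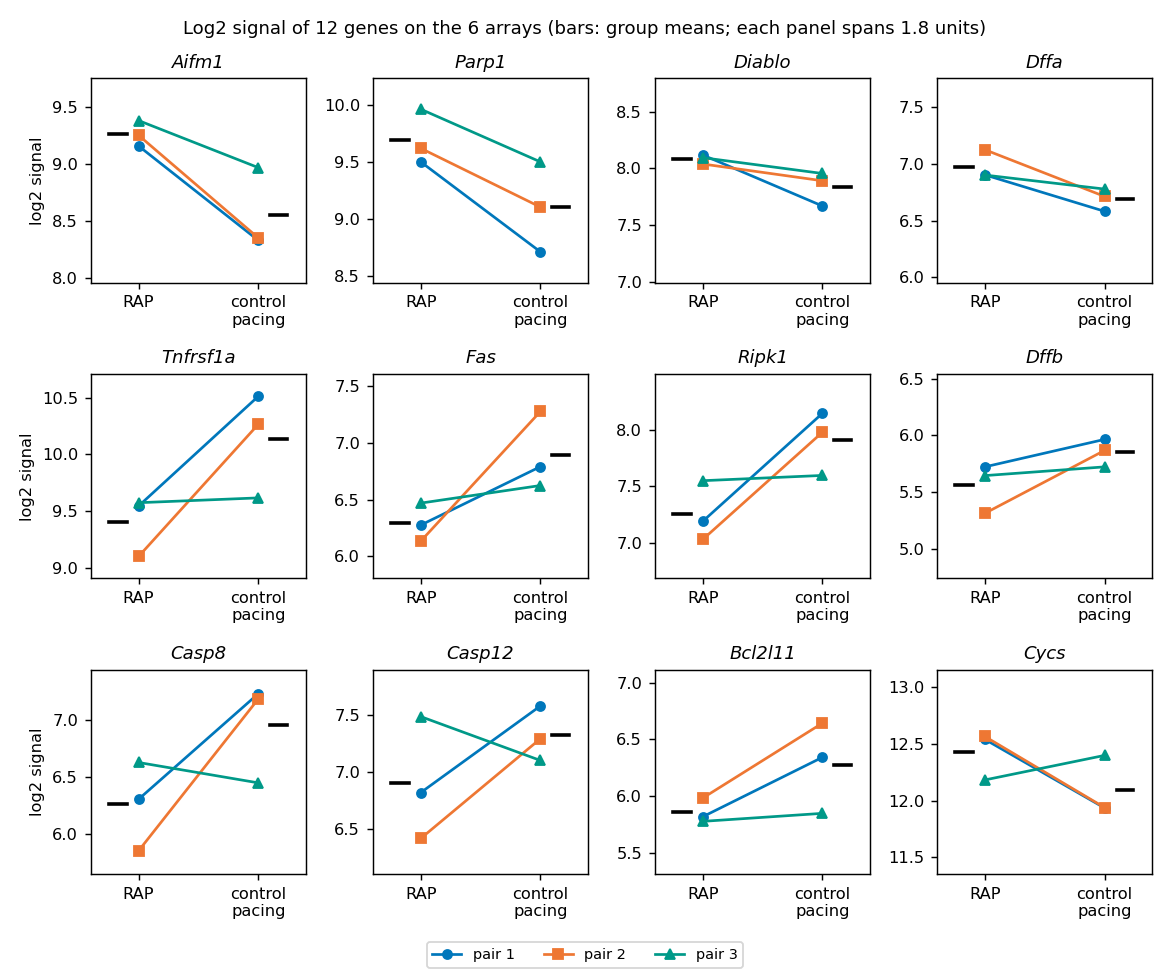
Log2 signal (vertical axis) of 12 genes on the 3 RAP arrays and the 3 control pacing arrays, with a line between the RAP and control rats of each pair and short bars for the group means. In Aifm1, Parp1, Diablo and Dffa every RAP array is above every control array, in Tnfrsf1a, Fas, Ripk1 and Dffb every RAP array is below, and in Casp8, Casp12 and Cycs pair 3 runs against pairs 1 and 2.

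The promoters of these 5 genes are shown because they are the members past the thresholds. Each stretch runs 5′ to 3′ on the strand of the gene, from 250 bases before to 50 bases after its start in RefSeq (build GRCr8), with matches to a searched motif in capitals. The motifs were the GC box GGGCGG, the CCAAT box CCAAT, the TATA box TATAAA, the E-box CACGTG, the ETS site CCGGAAG, the AP-1 site TGANTCA, the NF-kB site and the p53 half-site, each on both strands.
Aifm1, chrX:132567188-132567487, minus strand: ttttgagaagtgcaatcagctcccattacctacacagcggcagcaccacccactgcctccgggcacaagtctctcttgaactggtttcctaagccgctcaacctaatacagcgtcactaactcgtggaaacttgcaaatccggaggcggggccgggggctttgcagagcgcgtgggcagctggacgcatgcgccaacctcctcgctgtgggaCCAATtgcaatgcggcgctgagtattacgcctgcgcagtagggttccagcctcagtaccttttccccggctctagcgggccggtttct
Parp1, chr13:94839234-94839533, plus strand: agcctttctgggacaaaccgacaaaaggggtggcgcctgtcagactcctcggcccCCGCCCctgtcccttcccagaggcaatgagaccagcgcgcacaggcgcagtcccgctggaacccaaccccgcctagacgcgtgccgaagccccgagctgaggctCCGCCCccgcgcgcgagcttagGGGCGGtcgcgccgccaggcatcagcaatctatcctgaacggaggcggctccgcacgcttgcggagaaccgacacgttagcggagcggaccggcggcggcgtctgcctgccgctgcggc
Tnfrsf1a, chr4:159836869-159837168, plus strand: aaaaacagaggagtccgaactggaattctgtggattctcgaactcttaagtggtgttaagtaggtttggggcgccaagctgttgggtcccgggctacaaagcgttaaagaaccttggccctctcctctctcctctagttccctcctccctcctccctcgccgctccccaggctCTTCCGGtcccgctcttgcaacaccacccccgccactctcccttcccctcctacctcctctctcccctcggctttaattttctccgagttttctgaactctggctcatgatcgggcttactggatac
Ripk1, chr17:31077118-31077417, minus strand: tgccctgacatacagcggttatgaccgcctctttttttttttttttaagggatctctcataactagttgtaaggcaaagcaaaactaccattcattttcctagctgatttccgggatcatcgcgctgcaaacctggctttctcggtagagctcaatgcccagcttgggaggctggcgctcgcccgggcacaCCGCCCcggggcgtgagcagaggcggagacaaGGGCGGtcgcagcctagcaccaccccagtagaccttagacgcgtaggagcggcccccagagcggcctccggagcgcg
Fas, chr1:241211905-241212204, plus strand: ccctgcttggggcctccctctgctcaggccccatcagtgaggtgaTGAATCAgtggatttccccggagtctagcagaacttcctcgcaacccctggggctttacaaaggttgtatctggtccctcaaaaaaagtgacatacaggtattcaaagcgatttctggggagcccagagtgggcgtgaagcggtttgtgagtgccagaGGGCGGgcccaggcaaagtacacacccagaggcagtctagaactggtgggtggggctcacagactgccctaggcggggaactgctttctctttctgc
The window of Aifm1 held a CCAAT box and that of Parp1 held 3 GC boxes. Among the genes that fell, Ripk1 had 2 GC boxes, Fas had a GC box and an AP-1 site, and Tnfrsf1a had an ETS site, so that no searched motif was common to all 3. Of all 33469 promoter windows, 33.1% held a GC box, 37.5% a CCAAT box, 8.75% the ETS site and 7.33% the AP-1 site. A promoter entry was found for 28 of the 36 genes. Of these, 18 held a GC box, 9 a CCAAT box, 5 the ETS site, 4 a TATA box (14.2% of all windows), 3 the AP-1 site, 3 an NF-kB site (4.18% of all windows), 1 the p53 half-site (7.98%) and 0 the E-box (6.42%). A match is a run of letters and says nothing about whether a factor binds there.

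The other members of the death receptor pathway did not pass. In this group of 9 genes the median change was -0.07, with medians of -0.16, -0.67 and -0.04 in pairs 1, 2 and 3, against -0.01 over all genes. The median was -0.29 without replicate 1, -0.17 without replicate 2 and -0.32 without replicate 3. Tradd, the adaptor that links TNF receptor 1 to RIPK1, changed by -0.50 (SE 0.29), with differences of -0.65, -1.11 and 0.27. Fadd, the adaptor that brings caspase-8 to Fas, had a 95% interval of -0.36 to 0.36 around a difference near zero, so that larger changes in either direction lay outside it. Cflar, the caspase-8 decoy c-FLIP, changed by 0.03 (SE 0.14). The ligands Faslg and Tnfsf10, which encodes TRAIL, changed by -0.06 (SE 0.19) and -0.07 (SE 0.22), and each was lower with RAP in pair 3 alone. The TRAIL receptor Tnfrsf10b changed by 0.06 (SE 0.30), with differences of 0.02, -0.67 and 0.81 in pairs 1, 2 and 3. Faslg, given per array after its values were seen, for its low signal, had log2 signals of 5.16, 5.20 and 4.91 with RAP, against 4.99, 5.06 and 5.41 with control pacing, so that it lay near the signal floor of 5 on most arrays.

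None of the 5 caspases passed, and all 5 behaved alike across the pairs. Each was lower with RAP in pair 1 and in pair 2 and higher in pair 3, with class medians of -0.54, -0.65 and 0.18. Casp2, an initiator caspase linked to stress and DNA damage, had log2 signals of 7.14, 7.07 and 7.66 with RAP, against 7.68, 7.40 and 7.25 with control pacing. Casp12, a caspase of the endoplasmic reticulum in rodents, had log2 signals of 6.82, 6.42 and 7.49 with RAP, against 7.58, 7.30 and 7.10 with control pacing. In both genes RAP array 3 reached into the range of the controls, and the average changes were -0.15 (SE 0.23) and -0.42 (SE 0.29). Casp8, the initiator at the death receptors and given per array after its values were seen, had log2 signals of 6.30, 5.85 and 6.63 with RAP, against 7.23, 7.19 and 6.45 with control pacing. Its average of -0.70 (SE 0.32) was close in size to those of the genes that fell, with a 95% interval of -1.53 to 0.14, but the difference in pair 3 was 0.18. Casp8 passed in the fit with no replicate block, with array weights (-0.91) and without replicate 3 (-1.13). With single arrays left out of the fit with no replicate block, it passed without RAP array 3 (-0.88) or control array 3 (-0.95). Casp9, the initiator of the apoptosome, changed by -0.18 (SE 0.16) and Casp6, which cuts nuclear lamins, by -0.26 (SE 0.19).

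None of the 10 BCL2 family genes passed, and their median change was -0.10. Among the protectors, Mcl1 had log2 signals of 10.11, 10.20 and 10.43 with RAP, against 10.29, 10.25 and 10.06 with control pacing, and a change of 0.05 (SE 0.17). Bcl2l1, which encodes BCL-XL, had log2 signals of 8.29, 8.22 and 8.33 with RAP, against 8.10, 8.17 and 8.55 with control pacing. The groups overlapped in both genes, and the 95% interval of Bcl2l1, -0.38 to 0.39, was among the narrower ones here. Bcl2 itself averaged -0.03 (SE 0.30), which joined a higher signal with RAP in pairs 1 and 2 (0.46 and 0.35) to a lower one in pair 3 (-0.88). Without replicate 3 its change was 0.40 and past the thresholds. The effectors Bax and Bak1 changed by -0.07 (SE 0.18) and -0.16 (SE 0.31). Of the BH3-only genes, which set off the effectors or block the protectors, Bcl2l11, which encodes BIM, changed by -0.42 (SE 0.17, 95% interval -0.86 to 0.03) and Pmaip1, which encodes NOXA, by -0.39 (SE 0.20). Bcl2l11 was lower with RAP in all 3 pairs, though its groups overlapped. Bbc3, which encodes PUMA, was lower on all 3 RAP arrays by a small margin (-0.12, SE 0.13), and Bad changed by -0.12 (SE 0.16). Bid, which caspase-8 cuts to carry the receptor signal to the mitochondrion, averaged 0.02 (SE 0.37) with differences of -0.09, -0.86 and 1.00, the widest spread between pairs in the family.

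The 6 mitochondrial factors had a median change of 0.25, and their medians were positive in each pair (0.27, 0.39 and 0.14). Cycs, which encodes cytochrome c and serves respiration as well as the apoptosome, had log2 signals of 12.54, 12.56 and 12.18 with RAP, against 11.93, 11.94 and 12.40 with control pacing. RAP was higher in pairs 1 and 2 and lower in pair 3, and the change of 0.34 (SE 0.22) did not pass. Both probe sets of Cycs ran this way (0.34 and 0.37), but they list the same transcript accession and copies of this gene elsewhere in the genome cannot be told apart. Diablo, which encodes the IAP antagonist SMAC, had log2 signals of 8.12, 8.04 and 8.09 with RAP, against 7.67, 7.89 and 7.95 with control pacing. It was named after its values were seen, since all its RAP arrays were above all control arrays, and its change of 0.25 (SE 0.14) did not pass. Endog, a mitochondrial nuclease that can enter the nucleus, also changed by 0.25 (SE 0.20), most of it from pair 2 (0.71). Htra2, a protease that removes IAPs, and Apaf1, the scaffold of the apoptosome, went the other way on average (-0.32, SE 0.20, and -0.27, SE 0.27), with the sign turned in pair 3. The class was thus divided, with Aifm1, Cycs, Diablo and Endog positive and Htra2 and Apaf1 negative.

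None of the 3 inhibitors of apoptosis passed. Xiap, which blocks caspases directly, had log2 signals of 10.23, 10.25 and 10.23 with RAP, against 10.24, 10.08 and 10.20 with control pacing, and a change of 0.06 (SE 0.13). Its second probe set gave -0.01, with differences of 0.03, -0.38 and 0.31. Birc2, a ubiquitin ligase that holds RIPK1 in its survival role, had log2 signals of 7.16, 7.19 and 6.74 with RAP, against 6.90, 7.08 and 7.08 with control pacing. The groups overlapped, with the lowest array being RAP array 3, and the change was 0.01 (SE 0.17, 95% interval -0.44 to 0.46). Birc3, its close relative, changed by -0.21 (SE 0.34) and lay near the signal floor. Among the nuclear targets, the subunits of the DNA fragmentation factor moved apart. Dffa, the inhibitor subunit, had log2 signals of 6.90, 7.13 and 6.90 with RAP, against 6.58, 6.71 and 6.78 with control pacing. Dffb, the nuclease that it restrains, had log2 signals of 5.72, 5.31 and 5.64 with RAP, against 5.96, 5.87 and 5.72 with control pacing. In neither gene did the groups cross, although RAP array 1 and control array 3 of Dffb were nearly equal, and the changes of 0.29 (SE 0.14) and -0.29 (SE 0.15) did not pass, and Dffb was given per array after its values were seen.

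Over the 36 genes, 23 changes were negative and 13 positive, with a median of -0.10. The median was -0.13 in pair 1, -0.32 in pair 2 and 0.13 in pair 3. All RAP arrays were above all control arrays in 4 genes, Aifm1, Parp1, Diablo and Dffa, as in 7.57% of all genes. All were below in 5 genes, Tnfrsf1a, Fas, Ripk1, Bbc3 and Dffb, as in 7.85% of all genes. Of the 36 genes, 14 (38.9%) were lower with RAP in pairs 1 and 2 and higher in pair 3, a pattern of 21.7% of all genes. The reverse pattern held for 7 of them (19.4%), as for 19.4% of all genes. Across the 36 genes the changes of pairs 1 and 2 had a correlation of 0.84 (all genes, 0.46), those of pairs 1 and 3 of -0.21 (all genes, -0.10) and those of pairs 2 and 3 of -0.32 (all genes, -0.28). These are descriptions across genes, which share their arrays and are not independent replicates.

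**Figure D3:**
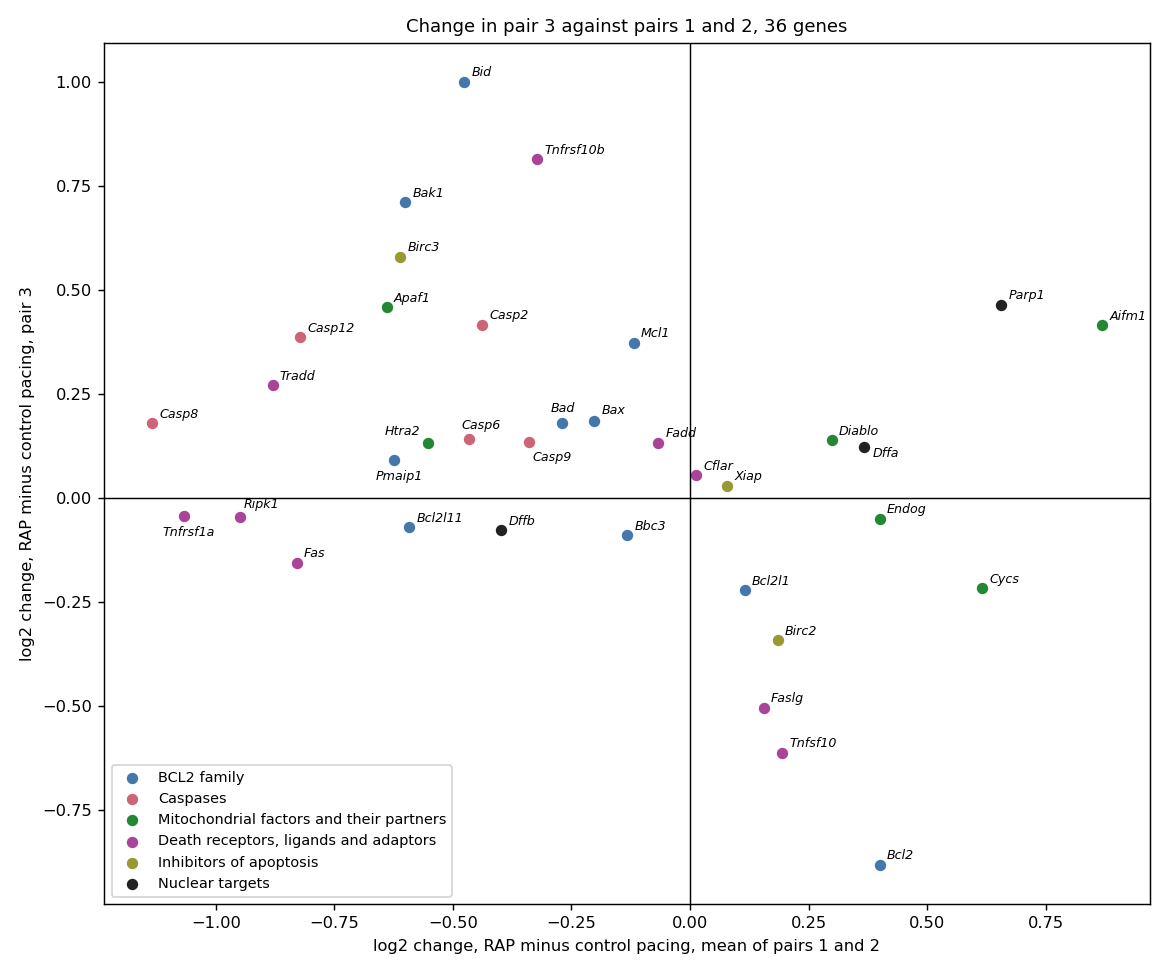
Log2 change (RAP minus control pacing) of the 36 genes in pair 3 (vertical axis) against the mean of pairs 1 and 2 (horizontal axis), colored by role. Aifm1 and Parp1 lie at the upper right with Diablo and Dffa, all 5 caspases lie at the upper left, and Tnfrsf1a, Ripk1 and Fas lie at the far left close to zero in pair 3.

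Levels of cell type markers also differed between the arrays. The 15 macrophage markers, as a mean deviation from each gene's average, stood at -0.32, -0.69 and 0.18 on RAP arrays 1, 2 and 3, against 0.23, 1.07 and -0.46 on control arrays 1, 2 and 3. The 5 caspases stood at -0.21, -0.43 and 0.12 with RAP, against 0.37, 0.27 and -0.13 with control pacing. The 9 death receptor pathway genes stood at -0.13, -0.30 and 0.01 with RAP, against 0.15, 0.26 and 0.02 with control pacing. In all 3 lists RAP array 2 was the lowest array, and each was lower with RAP in pairs 1 and 2. The 10 fibroblast markers had the same order of signs (-0.21, -0.71 and 0.31 with RAP, against 0.20, 0.72 and -0.32 with control pacing), and the atrial cardiomyocyte markers, 8 of 10 measured, had the opposite sign on every array but control array 3 (0.19, 0.40 and -0.15 with RAP, against -0.12, -0.30 and -0.02 with control pacing). The mean log2 signal of the macrophage markers ranged over 7.98 to 8.85 with RAP and over 8.21 to 9.74 with control pacing, and 1 of the 15, Vsig4, fell. Of the fibroblast markers 0 of 10 passed, and of the cardiomyocyte markers Pam rose. The epicardial markers, 6 of 8 measured, stood at -0.47, -0.49 and 0.11 with RAP, against 0.81, -0.11 and 0.15 with control pacing, and had median changes of -1.08, -0.68 and -0.35 in pairs 1, 2 and 3. Of these, Msln (-0.71, SE 0.14) and Wt1 (-0.85, SE 0.19) fell, and both were lower with RAP in all 3 pairs. The other 4 epicardial markers had mixed signs across the pairs. The mitochondrial factors stood at 0.01, 0.08 and 0.16 with RAP, against -0.16, -0.09 and 0.01 with control pacing. The part of cell makeup in the changes of the 36 genes was not tested.

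**Figure D4:**
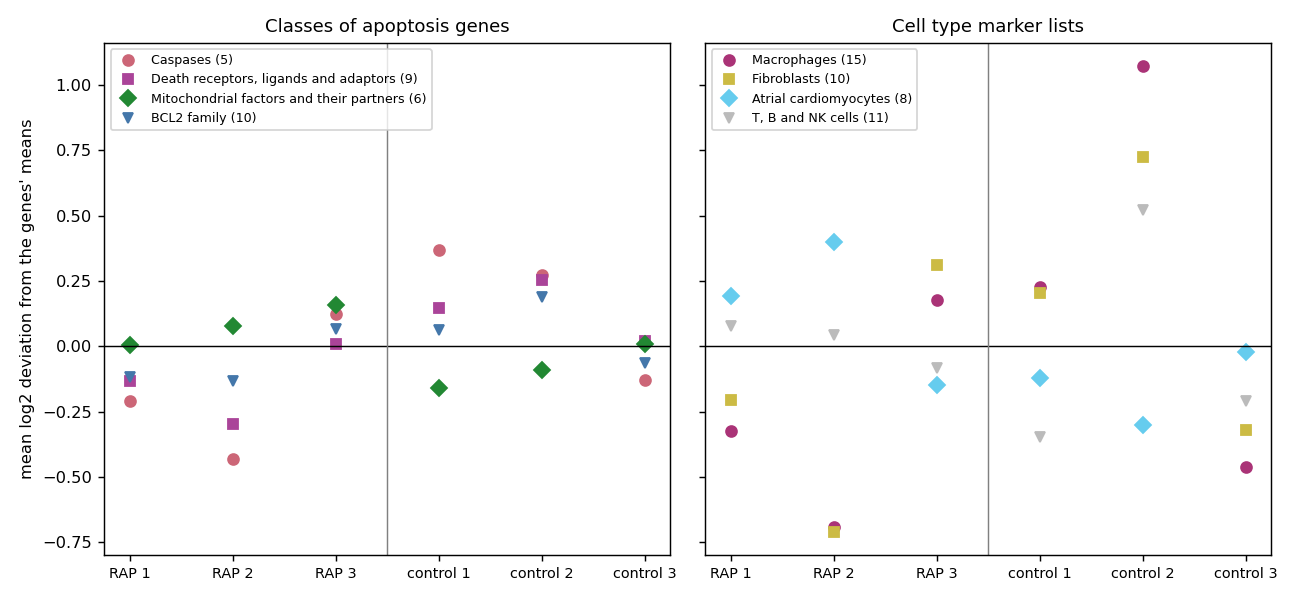
Mean log2 deviation from each gene's average over the 6 arrays (vertical axis) for 4 classes of apoptosis genes (left panel) and 4 lists of cell type markers (right panel), with the RAP arrays left of the control pacing arrays. Caspases and macrophage markers are both lowest on RAP array 2 (-0.43 and -0.69), and the mitochondrial factors range only from -0.16 to 0.16.

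The tissue matched its label, with log2 signals of the atrial marker Nppa of 13.54, 13.59 and 13.53 with RAP and 13.40, 13.46 and 13.52 with control pacing. Markers of T, B and NK cells, the usual source of Fas ligand, averaged 6.31 to 6.47 with RAP and 6.05 to 6.91 with control pacing over 11 of 14 genes. Of these 11 genes, Gzmb rose (0.42, SE 0.15), and 6 changes were positive and 5 negative. Neutrophil markers had mean log2 signals of 4.83, 5.39 and 6.12 on RAP arrays 1, 2 and 3, against 4.95, 6.62 and 5.56 on control arrays 1, 2 and 3. Red cell markers had mean deviations of -0.49 to -0.13 on the RAP arrays, against -0.11, -0.73 and 1.62 on control arrays 1, 2 and 3, the last being the highest of all. The arrays otherwise had like distributions, with medians of 5.82 to 5.85 with RAP and 5.83 to 5.84 with control pacing.

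Beyond the 36 genes, 98 further symbols of genes of cell death and its control were listed, with earlier results of these data known. Trp53inp1 and Tp53inp1 among them are symbols of the same gene. Of these, 75 were measured, and 9 rose (12%, against 2.94% of all genes) and 2 fell (2.67%, against 3.45% of all genes). Of the 9 rises, 7 (53.8% of its measured genes) lay in the list of the mitochondrial permeability pore and mitochondrial shape, of which 13 of 14 genes were measured, with a median change of 0.46. Dnm1l, the GTPase DRP1 that divides mitochondria, had log2 signals of 9.16, 9.42 and 9.48 with RAP, against 8.35, 8.56 and 8.94 with control pacing (change 0.74, SE 0.14). Vdac1, the main channel of the outer membrane, had log2 signals of 10.46, 10.74 and 10.77 with RAP, against 9.90, 9.75 and 10.24 with control pacing (change 0.69, SE 0.16). In both, every RAP array was above every control array. The other rises were those of the fusion genes Mfn1 (0.63, SE 0.21) and Opa1 (0.41, SE 0.15), of Chchd4, which imports proteins into the space between the membranes and whose partner there is AIF (0.55, SE 0.17), of the ATP and ADP carrier Slc25a5 (0.47, SE 0.17) and of Vdac2, the channel that holds BAK (0.44, SE 0.14). Ppif, the cyclophilin that sensitizes the pore, the fusion gene Mfn2 and the fission gene Fis1 changed by 0.66 (SE 0.28), 0.46 (SE 0.22) and -0.17 (SE 0.20) and did not pass. Dnm1l and Vdac1 passed under 20 of 21 alternatives, all but the adjusted threshold, whereas Vdac2 and Opa1 did not pass under 10, Chchd4 and Slc25a5 under 7 and Mfn1 under 4. Without replicate 1 the changes of Vdac2, Opa1, Chchd4, Slc25a5 and Mfn1 were 0.48, 0.40, 0.56, 0.44 and 0.72, and none passed. Without replicate 2 those of Vdac2, Opa1, Chchd4 and Mfn1 were 0.33, 0.29, 0.39 and 0.37, and without replicate 3 that of Slc25a5 was 0.33, and these did not pass either.

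Tspo, the outer membrane translocator protein that is also abundant in macrophages, was the 1 gene of this list that fell. Its log2 signals were 7.96, 7.74 and 7.74 with RAP, against 8.82, 8.62 and 8.44 with control pacing. It was lower with RAP by a like amount in each pair (-0.85, -0.89 and -0.70), an average of -0.81 (SE 0.13, 95% interval -1.15 to -0.47). Of the 6 measured epicardial markers, Msln (-0.87, -0.70 and -0.57) and Wt1 (-1.19, -0.92 and -0.45) were also lower with RAP in each pair. The other 4 had mixed signs across the pairs. The macrophage markers were, by their median, lower in pairs 1 and 2 and higher in pair 3. The part of cell makeup in the changes of this list was not tested.

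**Figure D5:**
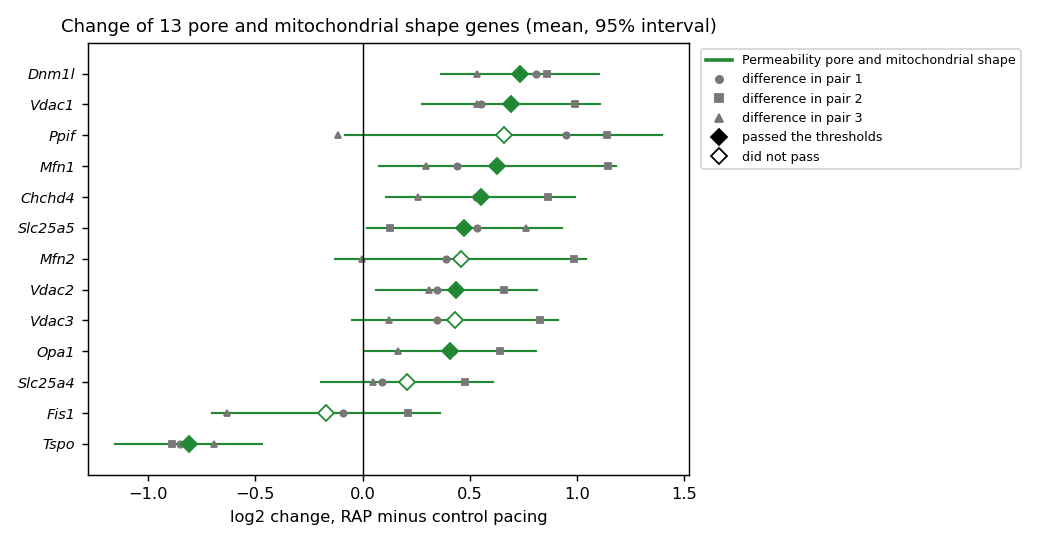
Log2 change (RAP minus control pacing, horizontal axis) of the 13 measured genes of the permeability pore and mitochondrial shape, with diamonds for the mean of 3 pairs, bars for its 95% interval and gray symbols for single pairs. Filled diamonds passed the thresholds; 7 lie between 0.41 and 0.74, and Tspo lies at -0.81.

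In the TNF family list, 16 of 21 genes were measured, 0 rose and Tnfrsf21, the death receptor DR6, fell. Tnfrsf21 had log2 signals of 7.40, 7.15 and 7.57 with RAP, against 8.25, 8.55 and 7.66 with control pacing (change -0.78, SE 0.28). As in Tnfrsf1a, Ripk1 and Fas, the groups did not overlap and the difference in pair 3 was small (-0.08), and Tnfrsf21 did not pass without replicate 1 (-0.74) or 2 (-0.47). Tnf itself changed by -0.13 (SE 0.21). Of the p53 targets and regulators, 11 of 15 listed symbols were measured and Ccng1, a cyclin induced by p53, rose (0.54, SE 0.17), though not without replicate 1 (0.55) or 2 (0.38). Cdkn1a, the cell cycle inhibitor p21 and a main p53 target, changed by -0.32 (SE 0.30). In the list of nuclear and other execution genes, 14 of 18 measured, Cidec rose (0.58, SE 0.15), a gene named for its likeness to the DNA fragmentation factor that coats the lipid droplets of fat cells. Its groups overlapped, and Cidec lost its call under at least 9 of 21 alternatives. Among these were the fits without replicate 1 (0.63) and with no replicate block. The adipocyte markers, of which Cidec is 1, had mean log2 signals of 6.93, 7.32 and 8.34 with RAP, against 6.66, 7.09 and 7.73 with control pacing. Among them Adipoq also rose (1.09, SE 0.21), and of the 8 changes 7 were positive and 1 negative. Of the NF-kB genes (9 of 12 measured), the BCL2 relatives (10 of 13) and the other caspases (2 of 5), 0 passed.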

How the data were processed

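RNA of the left atrium was measured on a GeneChip Rat Gene ST array for each of 6 rats. The deposited log2 values had been computed by the authors with RMA in Partek Genomics Suite (background correction, quantile normalization, median polish), which evens out array-wide shifts in signal. Software versions are not given in the sources used here. Of 29214 probe sets, 19907 with a log2 signal above 5 on at least 1 array were kept, and each gene was given by its single-symbol probe set with the highest mean (15310 probe sets carry 1 symbol, 323 several, 13581 none). All 36 symbols matched a current RefSeq gene, and 6 of these genes had more than 1 probe set. The annotation names no genome build, so probe sets carry no coordinates. Arrays give no read depth, and the precision is limited by their number.

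The RAP minus control pacing difference of each gene was fitted in limma 3.58.1 (R 4.3.3), blocking on the pair and moderating variances by empirical Bayes (2 residual and 2.76 prior degrees of freedom). When the fit was tested on simulated data, 90% of 2-fold changes and 4.56% of unchanged probe sets passed the thresholds. The simulated arrays of a pair shared a shift, whereas in pairs 2 and 3 here the deviations correlated negatively. A gene passed at an unadjusted p under 0.05 and a fold above 1.3, as in the study's methods. Adjusted p-values follow Benjamini and Hochberg, over the 19907 probe sets. An exact permutation test of 3 rats against 3 cannot give a two-sided p under 0.1, and an exact sign flip of 3 pairs cannot give one under 0.25. The study's methods describe the pairing of the rats. Arrays with the same replicate number in their labels were taken as a pair, which neither the methods nor the labels state, so the pairs are an assumption. The correlation of deviations from group means within pairs 1, 2 and 3 was 0.22, -0.24 and -0.32 over all probe sets. Arrays taken as a pair were thus not alike beyond pair 1, whereas the paper reports similarity within each pair by principal component analysis. The members and lists were chosen with earlier results of these data known. Every member is given with its change. Signals per array are given for those past the thresholds and for the 2 with the highest mean signal in each class (others are marked where given), and of the other pathway genes all past the thresholds are named, up to 12. The alternatives were no block, the methods' paired t-test, trend and robust moderation, array weights, other filters, other normalizations, the mean over probe sets, other thresholds and leaving out each pair or array. Promoters are RefSeq's (GRCr8).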

Additional observations from a re-analysis of the deposited data

How the results depend on the processing

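The directions of Aifm1, Parp1, Tnfrsf1a, Ripk1 and Fas were kept under all 21 alternatives, with changes of 0.61 to 0.93 for Aifm1, 0.39 to 0.79 for Parp1, -1.07 to -0.51 for Tnfrsf1a, -0.95 to -0.50 for Ripk1 and -0.83 to -0.34 for Fas. They no longer passed under 2, 6, 7, 4 and 7 of these, the adjusted threshold included. The fit with no replicate block (unpaired) called 2 members higher and 4 lower, adding Casp8. By the methods' paired t-test 0 members were lower, and 2 other pathway genes were higher and 1 lower. With array weights, which gave pairs 1, 2 and 3 weights of 4.91, 0.623 and 0.327, 4 members were higher and 12 lower, and 10 other pathway genes were lower, while 1161 of all 11237 genes were higher and 1489 lower. At an adjusted p under 0.05 all 4 counts were 0. Leaving out a pair or an array gave 0 to 4 members higher, 0 to 13 lower, 2 to 14 other pathway genes higher and 1 to 10 lower. With single arrays left out of the unpaired fit, members lower reached 8 without RAP replicate 3, other pathway genes higher were 5 without RAP replicate 2 or control replicate 2 and 4 without control replicate 1, and other pathway genes lower reached 8 without control replicate 3. By pairs, there were 0 members of either direction without replicate 1, 2 and 0 without replicate 2, and 4 and 13 without replicate 3. Over all genes these fits called 58 higher and 106 lower, 164 and 214, and 1066 and 1422. The median of the mitochondrial factors was 0.11 without replicate 2 and reached 0.35 when other pairs or arrays were left out. The medians ranged from -0.47 to -0.12 for caspases, from -0.24 to -0.02 for the BCL2 family and from -0.32 to -0.03 for the death receptor pathway. The last stood at -0.29 under the stricter filter and at -0.03 with arrays centred on their medians. Signs of called values turned for Bcl2, with -0.27 to 0.40 over the pairs and arrays left out and 0.40 without replicate 3, and for Cidec, with -0.22 to 1.25. Fas did not pass under cyclic loess or the stricter filter. Over all genes 330 were higher and 388 lower, against 401 and 331 with arrays centred on their medians, which moved the median change of all genes from -0.01 to 0.03, and 119 and 115 by the methods' paired t-test. Of 753 values of members under alternatives, 34 newly passed, 26 no longer passed and 57 changed sign without passing in either fit. The causes were not tested.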

Other observations

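Genes of NF-kB, the factor that turns TNF receptor signals to survival, did not pass. Rela, its main transactivating subunit and named after its values were seen, was lower on every RAP array than on any control array, with a change of -0.36 (SE 0.13), short of the 1.3-fold threshold. Nfkb1 and Nfkb2 changed by -0.18 (SE 0.21) and -0.19 (SE 0.19), and the inhibitor Nfkbia by -0.10 (SE 0.14).

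Among the BCL2 relatives, Bnip3 and Bnip3l, receptors for the removal of mitochondria and likewise named after their values were seen, differed in sign, at 0.43 (SE 0.32) and -0.51 (SE 0.26). Bnip3l was lower on all RAP arrays than on all control arrays, but its differences in pairs 1, 2 and 3 were -0.20, -0.10 and -1.21, so that most of the average came from pair 3. Red cell markers stood at a mean deviation of 1.62 on control array 3, and a link between them and Bnip3l was not tested. Ripk3, the partner of RIPK1 in necroptosis, a lytic form of cell death, changed by -0.49 (SE 0.51), with a spread between pairs too wide to place it.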
